A study of Mus musculus with 6 samples.

Results

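The genes described here encode the proteins that clot blood and dissolve the clot again, with the enzymes that modify them and the receptor that carries some of them out of the endoplasmic reticulum. They were taken from a list of gene symbols, drawn up by function with earlier results of these data known, and all 35 of 35 listed genes were found among the 18720 rows of the deposited tables. RNA was measured in the liver of male C57BL/6 mice, 1 year old, that were fed a high-fat diet and injected into the peritoneum 2 times a week for 12 weeks. The R159 group (3 libraries) received R159, a compound that the labels name by this code alone. The vehicle group (3 libraries) received the vehicle, on the same diet and schedule. All animals were thus aged, male and on the high-fat diet, and the series holds no lean, young or female group. By its title the series concerns a non-canonical arm of signalling from gp130, the receptor subunit shared by interleukin-6 and its relatives, and the comparison of the groups shows how clotting transcripts stood under the compound. The labels do not state that each library came from a separate animal, so the p-values measure the spread between these libraries, which may be technical in part.

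Hepatocytes make most plasma clotting factors. Clotting runs through a cascade in which proenzymes are cut into active proteases, with cofactors that speed each step, until thrombin turns fibrinogen into fibrin. Protein C, protein S, antithrombin and related inhibitors restrain the cascade, and plasmin, formed from plasminogen, digests the fibrin. Several factors need a vitamin K-dependent carboxylation of glutamate residues to bind membranes, and factors V and VIII leave the endoplasmic reticulum on a dedicated cargo receptor. The fibrinogen genes are textbook acute phase genes, which interleukin-6 induces through gp130 and STAT3.

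Values are normalised estimated read counts, and a log2 fold change is R159 minus vehicle on the log2(value + 1) scale, with its standard error (SE). A gene is called when limma's Benjamini-Hochberg adjusted p, taken over all 16594 tested genes, is under 0.05. Estimated depth per library was 51300000 to 76700000 reads, and the R159 libraries were the shallower ones (at most 55700000 reads). R159 replicate 2 stood apart, with 973 genes listed at 0 against 202 to 519 in the other libraries, and with Pearson's r across genes of 0.910 to 0.918 with the vehicle libraries against 0.937 to 0.942 for the other R159 libraries. Of 8 hepatocyte markers listed for this tissue 7 were in the tables, with a summed value of 3538240 to 6768900 per library. Short transcripts were in general higher in R159 and long ones lower. Of tested genes under 1000 nt, 35.8% were called higher, and of those of 7000 nt or more 30.9% were called lower, so that transcript lengths are given beside the called genes and others that moved most when the trend was removed.

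Most clotting transcripts did not pass the test. Of the 35 genes, 1 was called higher (2.86%, where 12.8% of all tested genes were) and 5 lower (14.3%, where 14.2% were), which makes 6 called (17.1%, where 27% of all were). The called genes were Vkorc1, higher, and F5, Vwf, Pros1, Ggcx and Lman1, lower. The groups did not overlap for 2 genes that lay higher in R159 (5.71%, against 22.5% of all tested genes), Vkorc1 and Cpb2, and for 9 that lay lower (25.7%, against 23.6%), namely the 5 called genes with F8, F13b, Plat and Mcfd2. The median log2 fold change was -0.10, beside 0.00069 over all tested genes. Without R159 replicate 1, 4 genes were called higher (Vkorc1, Proc, Klkb1 and Apoh) and 5 lower, and 0 were called higher without any other single library. Without R159 replicate 2, 3 genes were called lower. Without vehicle replicate 2 or vehicle replicate 3, 2 were called lower (F5 and Vwf). When the trend with transcript length was removed, 0 of the 35 were called in either direction, while 10.3% of all tested genes were then called higher and 8.1% lower. Whether length accounts for the differences was not tested.

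**Figure D1:**
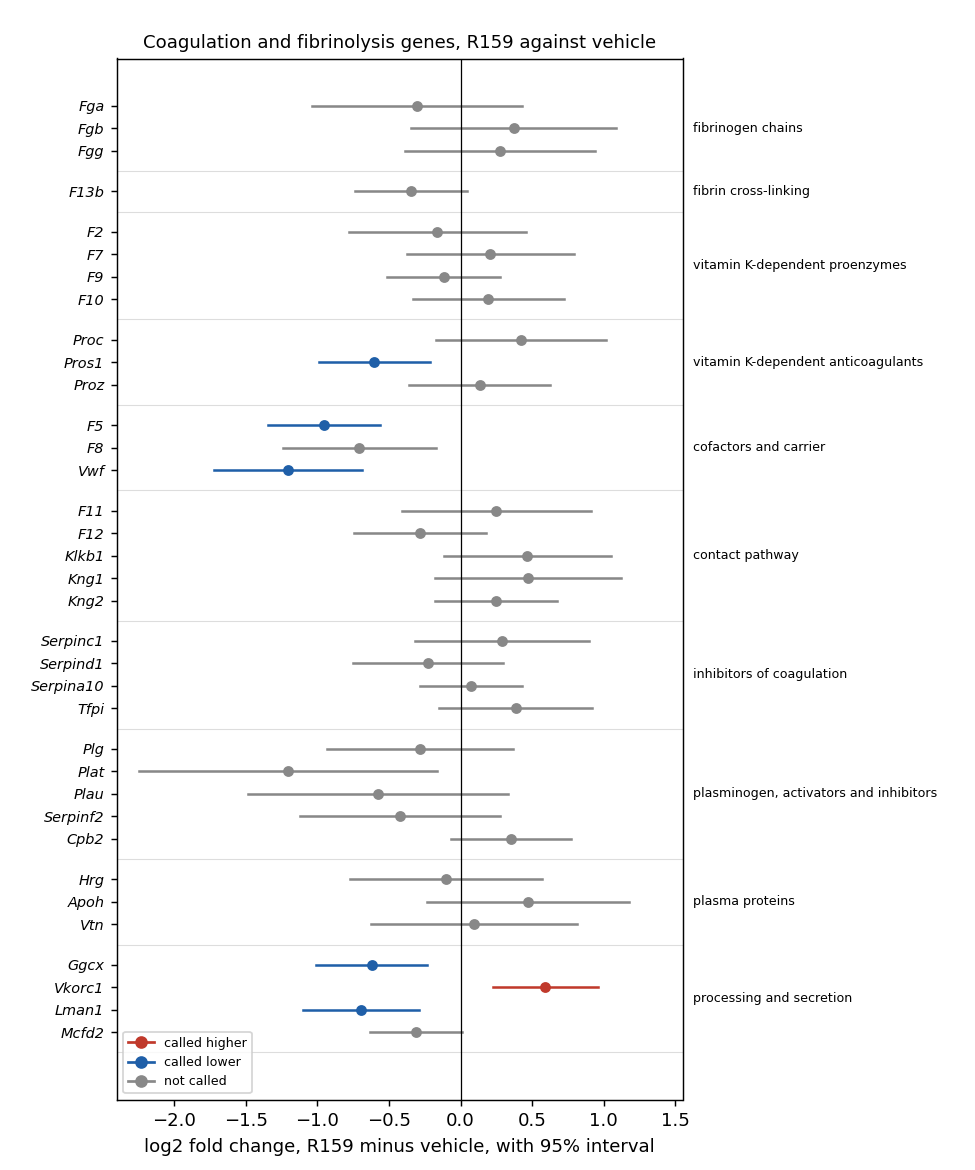
Log2 fold change (R159 minus vehicle, horizontal axis) of each of the 35 genes with its 95% interval, arranged by role, with called genes in colour. Most intervals span 0, and the 6 called genes lie among the cofactors with their carrier, the anticoagulants and the processing genes.

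Within each group the libraries differed from each other in the same direction for most of these genes. R159 replicate 3 held the highest R159 value for 29 of the 35 genes, where it was the highest for 28.7% of all tested genes, and R159 replicate 1 held the lowest for 22. Among vehicle libraries, replicate 1 was the lowest for 29 of the 35, and replicate 3 the highest for 24 (38.9% of all tested genes). In both groups replicate 1 was thus most often the lowest and replicate 3 most often the highest. Shares over all genes were not taken for the lowest library. The median deviation from the gene's vehicle mean, on the log2 scale, was -0.31, -0.22 and 0.29 for R159 replicates 1 to 3, against -0.17, 0.023 and 0.15 for the vehicle replicates. The R159 spread exceeded the vehicle spread for 28 of 35 genes (80%), close to the 75.3% of all tested genes, with a median SD on the log2 scale of 0.38 in R159 and 0.19 in vehicle. The 35 genes together took 2.30%, 1.98% and 3.12% of all values in R159, and 2.37%, 2.72% and 2.80% in vehicle, so the groups overlapped.

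**Figure D2:**
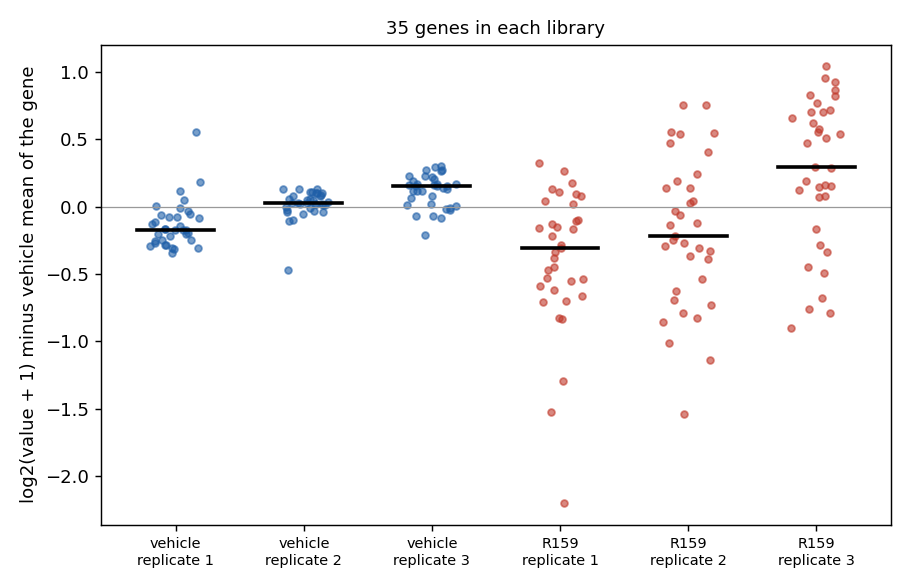
Each point is 1 of the 35 genes in 1 library, as log2(value + 1) minus that gene's vehicle mean (vertical axis), and the bars are the library medians. R159 replicate 3 has a median of 0.29, above the medians of -0.31 and -0.22 of the other R159 libraries.

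Levels were compared between genes per kilobase of the longest annotated coding transcript, in the vehicle group. The most abundant was Apoh, which encodes the phospholipid-binding beta-2-glycoprotein I, at 78917 ± 10574 per kb (SD, n = 3). Vtn (vitronectin), Fgg and Fga followed at 76590 ± 3605, 72606 ± 10402 and 72307 ± 11339 per kb, and these neighbours lay within an SD of each other. F2 was next at 52911 ± 7408 per kb. The lowest levels were those of F8 at 52.8 ± 10.4, Tfpi at 55.5 ± 9.10, Vwf at 65.8 ± 0.816, Plat at 69.3 ± 25.4 and Plau at 79.4 ± 5.61 per kb. Of these 5 genes, Vwf, Plat, F8 and Tfpi are known mainly as products of endothelial cells, and F11, the next higher, stood at 1102 ± 20.7 per kb.

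Fibrinogen is built from 3 chains, whose genes lie side by side. Fga, the alpha chain gene, was 149902, 107083 and 211039 in R159 replicates 1 to 3 against 153473, 200032 and 207667 in vehicle replicates 1 to 3. Fgb, the beta chain gene, was 180926, 207827 and 310939 in R159 against 148212, 185175 and 197428 in vehicle. Fgg, the gamma chain gene, was 141294, 119866 and 206469 in R159 against 105672, 134432 and 139118 in vehicle. For each chain the groups overlapped, and R159 replicate 3 held the highest of the 6 values. The log2 fold changes were -0.30 for Fga (SE 0.33, 95% interval -1.04 to 0.43, limma adjusted p = 0.510), 0.37 for Fgb (SE 0.32, -0.35 to 1.09, limma adjusted p = 0.408) and 0.27 for Fgg (SE 0.29, -0.39 to 0.94, limma adjusted p = 0.511). Under quantile normalization Fgg gave -0.026 and Fgb 0.023. Fgb gave 0.64 and Fgg 0.11 when the trend with transcript length was removed, and Fga 0.019 when that with coding length was.

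The groups overlapped in the level of each chain, but not in the proportion of Fgb or Fgg to Fga. The Fgb to Fga ratio of deposited values was 0.966, 0.926 and 0.951 in vehicle replicates 1 to 3, and 1.21, 1.94 and 1.47 in R159. The Fgg to Fga ratio was 0.689, 0.672 and 0.670 in vehicle, and 0.943, 1.12 and 0.978 in R159. Every R159 library thus lay above every vehicle library for both ratios, with the highest values in R159 replicate 2, the library that stood apart. With all libraries the log2 differences were 0.67 and 0.58, with an exact two-sided permutation p of 0.1 each. That is the smallest that 3 against 3 libraries allow (0.2 after Benjamini-Hochberg adjustment over the 4 ratios tested). Without R159 replicate 2 the log2 differences were 0.49 and 0.50. The Fgb to Fgg ratio was 1.28, 1.73 and 1.51 in R159 against 1.403, 1.38 and 1.42 in vehicle, and the groups overlapped (exact permutation p = 0.7, adjusted 0.7). These ratios were chosen after the values had been seen. Single genes often lay apart in these libraries (22.5% of all tested genes higher in R159 and 23.6% lower). How often the ratios of other gene pairs do so was not tested. The annotated transcripts are 2587 nt for Fga, 3810 nt for Fgb and 1741 nt for Fgg. After removal of the length trend the log2 differences were 0.89 and 0.35, again with no overlap between groups (exact permutation p = 0.1).

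**Figure D3:**
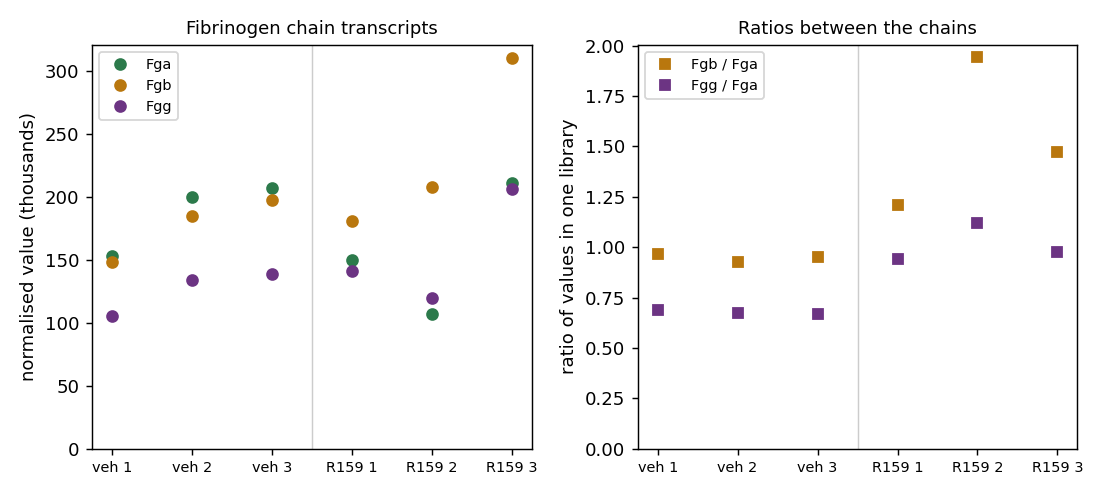
Left, normalised value (axis in units of 1000) of the 3 fibrinogen chain genes in each library. Right, ratio of Fgb and of Fgg to Fga within each library. The levels overlap between groups, while both ratios lie higher in the 3 R159 libraries than in the 3 vehicle libraries.

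The promoters of the fibrinogen genes are shown because these genes are the members best known as targets of interleukin-6. Each window holds 250 bases before and 50 bases after the RefSeq start in build GRCm38.p6, on the gene's own strand, while the submitters' processing notes name mm39. The Fga window is chr3:83025903-83026202 (plus strand), the Fgb window chr3:83049814-83050113 (minus strand) and the Fgg window chr3:83007474-83007773 (plus strand). Capitals mark letters that match any of 4 motifs on either strand. These were the interleukin-6 response element (CTGGGAA), a STAT site (TTCNNNGAA), a C/EBP site (TTNNGNAAT) and the TATA box (TATAAA). The interleukin-6 element and the STAT site can share letters where they meet, though they did not in these 3 windows.
Fga: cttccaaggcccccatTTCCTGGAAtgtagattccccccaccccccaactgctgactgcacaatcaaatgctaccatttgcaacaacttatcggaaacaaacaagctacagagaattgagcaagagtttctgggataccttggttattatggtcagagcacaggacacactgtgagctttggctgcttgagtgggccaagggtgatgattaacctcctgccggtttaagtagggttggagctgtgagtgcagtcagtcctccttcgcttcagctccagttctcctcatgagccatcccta
Fgb: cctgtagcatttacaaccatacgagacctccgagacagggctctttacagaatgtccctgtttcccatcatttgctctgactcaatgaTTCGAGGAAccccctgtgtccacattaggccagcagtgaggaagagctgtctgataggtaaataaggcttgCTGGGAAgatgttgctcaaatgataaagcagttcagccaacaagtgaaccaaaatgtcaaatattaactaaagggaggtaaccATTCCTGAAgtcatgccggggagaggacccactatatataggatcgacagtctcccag
Fgg: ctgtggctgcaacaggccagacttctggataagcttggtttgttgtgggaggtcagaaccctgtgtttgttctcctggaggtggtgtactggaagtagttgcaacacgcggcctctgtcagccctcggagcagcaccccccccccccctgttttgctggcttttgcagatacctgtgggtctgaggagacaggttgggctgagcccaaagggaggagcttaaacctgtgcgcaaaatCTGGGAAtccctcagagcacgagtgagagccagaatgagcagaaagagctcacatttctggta

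Fga held a STAT match that begins 234 bases before the start. Fgb held a STAT match 162 bases before, an interleukin-6 element 91 bases before and a C/EBP match 8 bases before the start. Fgg held the interleukin-6 element 13 bases before the start. Windows were found for 27 of the 35 genes and not for Proc, Vwf, Kng1, Serpina10, Plg, Plat, Plau and Lman1. The interleukin-6 element stood in 6 of these 27 genes and in 12.7% of all 27018 genes with a window, the STAT site in 5 of 27 and in 9.6%, the C/EBP site in 9 of 27 and in 13.1%, and the TATA box in 4 of 27 and in 15.7%. A match is a description of letters and not of binding.

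The cofactors and the carrier lay lower in R159. F5 encodes factor V, the cofactor with which factor X activates prothrombin. It was 18676, 15156 and 17864 in R159 replicates 1 to 3 against 31589, 32288 and 36133 in vehicle. All R159 libraries lay far below all vehicle libraries. F5 fell by 0.96 on the log2 scale, or 48.4% (SE 0.17, limma adjusted p = 0.00662), and stayed called without any of the 6 libraries in turn (limma adjusted p up to 0.0351). Its transcript is 7430 nt long, and with the length trend removed the log2 fold change was -0.44 (SE 0.14, limma adjusted p = 0.0561).

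F8 encodes factor VIII, the cofactor of factor IX, which is lacking in haemophilia A. Its values were 321, 252 and 374 in R159 against 400.3, 557 and 592 in vehicle. The groups did not overlap, with a gap of 374 to 400.3, and the log2 fold change of -0.71 (SE 0.24, 95% interval -1.24 to -0.17) missed the threshold (limma adjusted p = 0.0533). It was past the threshold with the stricter filter on low values, with sample weights, after rescaling without the highest genes, and without R159 replicate 3 (limma adjusted p = 0.0454 to 0.0486). With the trend over transcript length removed (its own is 9784 nt) the log2 fold change was -0.21 (limma adjusted p = 0.527).

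Vwf encodes von Willebrand factor, which tethers platelets to injured vessels and carries factor VIII in plasma. It was 236, 199.9 and 336 in R159 against 577, 589.7 and 577 in vehicle, so the vehicle libraries were nearly alike and every R159 library lay far below them. Vwf fell by 1.21 on the log2 scale, or 56.7% (SE 0.23, limma adjusted p = 0.00757), and stayed called without any of the 6 libraries in turn (limma adjusted p up to 0.0371). Its transcript has 8834 nt, and with the length trend removed the log2 fold change was -0.70 (SE 0.24, limma adjusted p = 0.0745). Of 8 liver endothelium markers 1 was called lower (12.5%, where 14.2% of all tested genes were) and 0 higher. The called marker was Tek, an angiopoietin receptor (log2 fold change -0.85, limma adjusted p = 0.0160). With the length trend removed Tek (4654 nt) gave -0.48 and was not called (limma adjusted p = 0.115). Clec4g lay higher in R159 without overlap, uncalled (0.58, limma adjusted p = 0.0867), and the other 7 markers had negative log2 fold changes. The summed value of the 8 markers was 8650 to 11783 in R159 against 10136 to 13428 in vehicle. Of 6 tested markers of platelets and megakaryocytes, which also hold von Willebrand factor, limma called 0. An unadjusted limma p under 0.05 was found for 2 of the 6, and for 6880 of the 16594 tested genes. The summed value of the list was 308 to 683 in R159 against 177 to 251 in vehicle. Pf4, Itga2b and Gp9 lay higher in R159 without overlap (3 of 6, where 22.5% of all tested genes did). With the length trend removed Itga2b was called higher (1.22, limma adjusted p = 0.0332). Pf4 and Itga2b, defining genes of these cells, were above 0 in every library. Gp1bb was only 5.6e-30 in R159 replicate 2 and 6.84e-21 in vehicle replicate 2. The part of these cells in the Vwf and F8 values was not tested, and in a piece of liver fewer cells of a type and less RNA per cell cannot be told apart.

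The receptor that carries factors V and VIII from the endoplasmic reticulum to the Golgi is a complex of the lectin LMAN1 and the calcium-binding protein MCFD2. Loss of either protein is known to cause combined deficiency of both factors. Lman1 was 7099, 7510 and 6840.0 in R159 against 9385, 11860 and 13972 in vehicle, with no overlap. It fell by 0.70 on the log2 scale, or 38.3% (SE 0.18, limma adjusted p = 0.0217). The call was lost without R159 replicate 3, vehicle replicate 2 or vehicle replicate 3 (limma adjusted p up to 0.0882), and with the trend of transcript length removed (4676 nt; -0.32, limma adjusted p = 0.170). Mcfd2 was 10236, 10106 and 9880.2 in R159 against 11972, 12949.9 and 12562 in vehicle. Its groups were apart and narrow, and the log2 fold change of -0.31 (SE 0.14, 95% interval -0.63 to 0.013) was not called (limma adjusted p = 0.134), though it was under quantile normalization (-0.43, limma adjusted p = 0.0480).

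**Figure D4:**
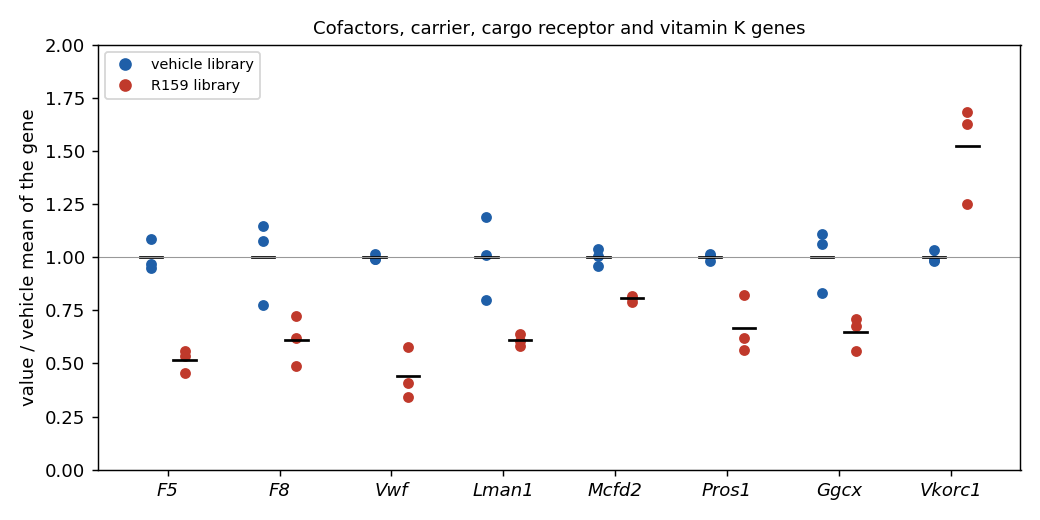
Value of each library divided by the gene's vehicle mean (vertical axis), for the cofactors, their carrier and cargo receptor, protein S and the vitamin K cycle genes, with bars at group means. Vkorc1 lies above the vehicle libraries in all 3 R159 libraries, and the other genes lie below.

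Carboxylation of the vitamin K-dependent factors needs GGCX, the carboxylase, and VKORC1, the warfarin-sensitive reductase that recycles vitamin K. Their transcripts differed in opposite directions. Ggcx was 2352, 1945 and 2454 in R159 against 2883, 3683 and 3849 in vehicle. It fell by 0.62 on the log2 scale, or 34.99% (SE 0.17, limma adjusted p = 0.0285), kept its call in 3 of the 6 settings that leave out a library, and lost it without R159 replicate 2, vehicle replicate 2 or vehicle replicate 3 (limma adjusted p up to 0.120). Vkorc1 was 6808, 9165 and 8861 in R159 against 5616, 5338 and 5372 in vehicle. It rose by 0.59 on the log2 scale, or 1.51-fold (SE 0.16, limma adjusted p = 0.0275), and kept its call in 1 of these 6 settings, the one without R159 replicate 1 (limma adjusted p up to 0.113 in the others). The Vkorc1 transcript, 748 nt, is the shortest of the 35. With the trend over transcript length removed its direction turned (-0.32, limma adjusted p = 0.136), while Ggcx (2929 nt) gave -0.49 (limma adjusted p = 0.0537). With the trend over coding length removed instead, Vkorc1 kept its direction at 0.17 and Ggcx gave -0.31, both uncalled (limma adjusted p = 0.318 and 0.140).

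The proenzymes that depend on these enzymes were not called. F2, the gene of prothrombin, was 76581, 83287 and 127358 in R159 against 96329, 97046 and 122189 in vehicle, with log2 fold change -0.16 (SE 0.27, 95% interval -0.78 to 0.45, limma adjusted p = 0.680). R159 replicate 3 was the highest of the 6 libraries and R159 replicate 1 the lowest. F7, which starts the extrinsic pathway with tissue factor, F9, the gene mutated in haemophilia B, and F10, whose product cuts prothrombin, differed by 0.21, -0.12 and 0.19 as log2 fold changes (limma adjusted p = 0.573, 0.641 and 0.559). Their groups overlapped. Group means were 3393 ± 1242 and 2851 ± 524 for F7, 8907 ± 1451 and 9610.1 ± 974 for F9, and 25047 ± 7210.0 and 21390 ± 2617 for F10 (R159 and vehicle, SD, n = 3).

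Of the 3 vitamin K-dependent anticoagulants, 1 was called lower (33.3%, where 14.2% of all tested genes were) and 0 higher. Pros1, the gene of protein S, the cofactor of activated protein C, was 2119, 2329 and 3088.5 in R159 against 3781, 3820.5 and 3701 in vehicle. R159 replicate 3 lay nearest to the vehicle libraries. Pros1 fell by 0.60 on the log2 scale, or 34.2% (SE 0.17, limma adjusted p = 0.0310). The call held without R159 replicate 1 and without R159 replicate 3 and was lost without each of the other 4 libraries (limma adjusted p up to 0.113), and with the length trend removed (3303 nt; -0.40, limma adjusted p = 0.109). Proc, the gene of protein C itself, was 25251, 39981 and 50244 in R159 against 24139, 29068 and 29927 in vehicle. Its log2 fold change was 0.42 (SE 0.26, limma adjusted p = 0.254), 0.70 without R159 replicate 1 (limma adjusted p = 0.0303), and 0.18 with the length trend removed (1575 nt). Proz, the gene of protein Z, gave 0.13 (limma adjusted p = 0.675).

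The contact pathway starts on charged surfaces with factor XII, prekallikrein and high molecular weight kininogen, and leads to factor XI. None of its 5 genes was called by limma, where 27% of all tested genes were. An unadjusted limma p under 0.05 was found for 0 of the 5, and for 6880 of the 16594 tested genes. The groups overlapped for all 5, as they did for 8935 of the tested genes. Kng1, a kininogen gene that is the source of bradykinin, was 86652, 118984 and 162232 in R159 against 75909, 83944 and 98857 in vehicle (log2 fold change 0.47, SE 0.29, 95% interval -0.18 to 1.12, limma adjusted p = 0.248). Its tandem copy Kng2 was 11996, 12365 and 15999.9 in R159 against 9979.8, 10503 and 13547 in vehicle (0.25, SE 0.19, -0.18 to 0.68, limma adjusted p = 0.356). The Kng1 and Kng2 genes are close copies, so their reads may be divided uncertainly. The Kng2 to Kng1 ratio was 0.138, 0.104 and 0.0986 in R159 against 0.131, 0.125 and 0.137 in vehicle (exact permutation p = 0.4, adjusted 0.533).

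Klkb1, the gene of prekallikrein, was 12242, 19073 and 25402 in R159 against 11666, 13067 and 14735 in vehicle (0.47, SE 0.26, limma adjusted p = 0.203). It was called higher without R159 replicate 1 (0.75, limma adjusted p = 0.0220) and with sample weights (0.65, limma adjusted p = 0.0408), and gave 0.90 with the length trend removed (5249 nt; limma adjusted p = 0.0574). Klkb1 shares exons on its own strand with Gm45753, a read-through model, which held 91.6, 1.09e-08 and 5.85 in R159 against 2154, 2268 and 3768 in vehicle. With the values of both models added together, the log2 fold change was 0.20 (SE 0.26, limma adjusted p = 0.590). F11 (factor XI) was 2201, 2263 and 5069 in R159 against 2416, 2506 and 2480.1 in vehicle, so that R159 replicate 3 alone lay above the vehicle libraries, and F12 (factor XII) gave -0.28 (limma adjusted p = 0.325).

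The inhibitors of coagulation were not called either. Serpinc1, the gene of antithrombin, which inactivates thrombin and factor X and is the target of heparin, was 93993, 134110 and 150733 in R159 against 89976, 102104 and 112826 in vehicle. The R159 values began within the vehicle range and ended above it (log2 fold change 0.29, SE 0.27, 95% interval -0.32 to 0.90, limma adjusted p = 0.441). With the length trend removed Serpinc1 (4970 nt) gave 0.69 and Tfpi, described next, 0.68 (3968 nt), again not called (limma adjusted p = 0.0957 and 0.0717). Serpind1 (heparin cofactor II), Serpina10 (the protein Z-dependent inhibitor) and Tfpi (tissue factor pathway inhibitor) gave -0.23, 0.074 and 0.38 (limma adjusted p = 0.487, 0.755 and 0.249). Serpina10 was 10028 ± 234 in R159 against 9586 ± 1294 in vehicle (SD, n = 3). F13b, whose product carries the fibrin cross-linking enzyme, was 6410.4, 8256 and 8737 in R159 against 8877, 9947 and 10726 in vehicle. The groups did not overlap, and the log2 fold change of -0.34 was not called (SE 0.17, limma adjusted p = 0.164).

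In fibrinolysis, Plg, the gene of plasminogen, was 82777, 79125 and 128229 in R159 against 93875, 113588 and 141443 in vehicle. The groups overlapped (log2 fold change -0.28, SE 0.29, 95% interval -0.93 to 0.37, limma adjusted p = 0.488). Plat, the gene of tissue plasminogen activator, was 35.8, 101 and 104 in R159 against 246, 121 and 158 in vehicle, with no overlap. Its log2 fold change was -1.20 (SE 0.46, 95% interval -2.24 to -0.16), and was not called (limma adjusted p = 0.0805). Plau, the gene of urokinase, was 63.9, 144 and 206 in R159 against 201, 180.1 and 177 in vehicle (-0.58, limma adjusted p = 0.306). Without R159 replicate 1, the lowest library for both, Plat gave -0.71 and Plau -0.11 (limma adjusted p = 0.148 and 0.760). Serpinf2, the gene of alpha-2-antiplasmin, gave -0.42 (limma adjusted p = 0.332), and -0.78 without R159 replicate 3 (limma adjusted p = 0.0453). Cpb2 encodes the carboxypeptidase TAFI, which protects fibrin from plasmin. Its values were 18510.1, 16996 and 24301 in R159 against 14843, 16852 and 14703 in vehicle, apart by a narrow margin (0.35, SE 0.19, limma adjusted p = 0.184). With the length trend removed (1477 nt) the log2 fold change of Cpb2 was 0.052 (limma adjusted p = 0.872).

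Among the other plasma proteins, Hrg (histidine-rich glycoprotein, which binds plasminogen and heparin) was 40845 to 89848 in R159 against 56149 to 64815 in vehicle. Vtn, which stabilises the inhibitor of plasminogen activators, was 102590 to 216617 in R159 against 126721 to 139077 in vehicle. For both, the R159 range enclosed the vehicle range, and the log2 fold changes were -0.10 and 0.096 (limma adjusted p = 0.819 and 0.844). Apoh was 83837, 157043 and 164673 in R159 against 81261, 94047 and 106426 in vehicle (0.47, SE 0.31, limma adjusted p = 0.287). It was called higher without R159 replicate 1 (0.78, limma adjusted p = 0.0430), and its log2 fold change was -0.028 with the length trend removed.

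Length and fold change went together over the 35 genes, as they did over all genes. Spearman's rho between log2 fold change and transcript length was -0.41 over the 35, and -0.42 over the 15854 tested genes with a length. All of them share the same 6 libraries. The 3 genes of 7000 nt or more were F5, F8 and Vwf. Their log2 fold changes of -0.96, -0.71 and -1.21 stood beside a median of -0.49 over the 1167 tested genes of that length. Of the 7 genes from 3000 to 4999 nt, 2 were called lower (Pros1 and Lman1), beside 21.0% of all genes in that range. Vkorc1, under 1000 nt, gave 0.59 beside a median of 0.83 in its range. Several long transcripts of the list lay above the trend, among them Klkb1, Serpinc1, Fgb and Tfpi.

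**Figure D5:**
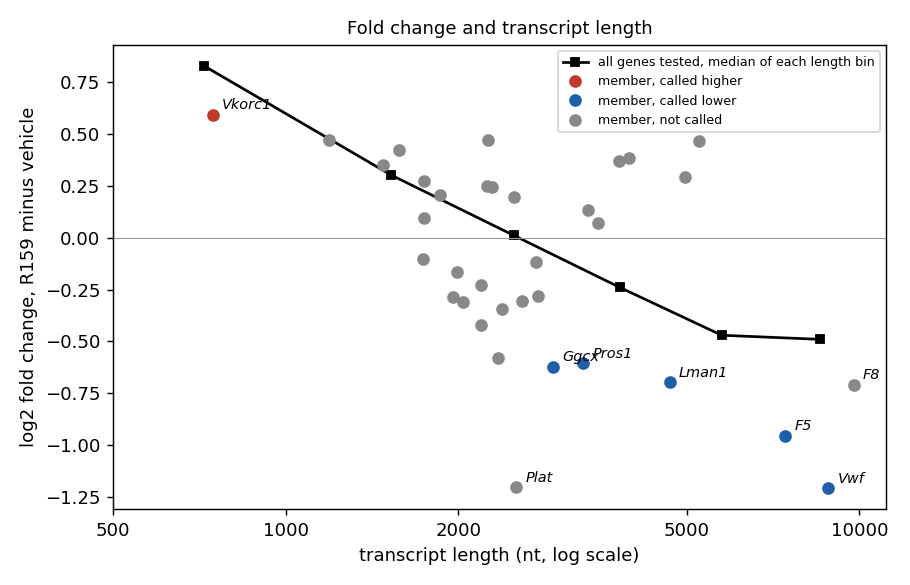
Log2 fold change (R159 minus vehicle, vertical axis) against transcript length in nt (log scale) for the 35 genes, with the median of all tested genes in 6 length ranges as squares. F5, F8 and Vwf lie below the median of their range, and Vkorc1 lies at the short end below the median of its own.

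Other genes of the pathway were given by a list of 33, of which 30 were tested, and limma called 1 higher and 6 lower (12.8% and 14.2% of all tested genes), with a median log2 fold change of -0.31. F2r, the gene of the thrombin receptor PAR1, was 732, 884 and 1141 in R159 against 3054, 2403 and 2110 in vehicle, and fell by 1.46 as a log2 fold change (SE 0.21, limma adjusted p = 0.00401). Calu encodes calumenin, a calcium-binding protein of the endoplasmic reticulum that restrains carboxylation. It fell by 1.24 (SE 0.19, limma adjusted p = 0.00465). Anxa2, whose product with S100A10 binds plasminogen and its activator at the cell surface, fell by 1.24 (SE 0.26, limma adjusted p = 0.01004), while S100a10 gave 0.85 (limma adjusted p = 0.0640), and -0.13 with the length trend removed. Thbs1 (thrombospondin) fell by 1.26 (limma adjusted p = 0.0309). The gene called higher was Plgrkt, a membrane receptor of plasminogen, which rose by 1.46 (SE 0.35, limma adjusted p = 0.0171). With the length trend removed, F2r, Calu and Anxa2 were still called lower (limma adjusted p = 0.00819, 0.00768 and 0.00439), and Thbs1 and Plgrkt were not (0.148 and 0.141). Adamts13, whose product cuts von Willebrand factor, was then called higher (1.00, limma adjusted p = 0.0114, from 0.64 and 0.0588), and is named after its values were seen. Vkorc1l1, a paralogue of Vkorc1 that was singled out after its value had been seen, fell by 0.59 (limma adjusted p = 0.0324, and 0.448 with the length trend removed).

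Of 5 transcription factors known to act on clotting genes in hepatocytes, 2 were called lower and 0 higher (14.2% and 12.8% of all tested genes). Hnf4a, a main regulator of hepatocyte genes, was 24314, 18094 and 21164 in R159 against 27755, 35511 and 38074 in vehicle. It fell by 0.67 (SE 0.20, limma adjusted p = 0.0382), and Stat3 fell by 0.97 (SE 0.24, limma adjusted p = 0.0199). Neither was called with the length trend removed (limma adjusted p = 0.163 and 0.0852). Cebpa, Cebpb and Foxa2 differed by -0.22, 0.23 and -0.18 as log2 fold changes (limma adjusted p = 0.440, 0.453 and 0.573).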

How the data were processed

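RNA-seq of poly(A) RNA from 6 mouse liver samples was analysed (R159 and vehicle, 3 each), made into stranded libraries per the labels' protocols. The deposited values are a signal that the authors named normalized counts, and the values look like fractional estimated counts, each library scaled by its own factor. The submitters' processing notes name the build mm39 and, without their roles, STAR 2.7.8a, FastQC 0.11.9, R 4.2.3, cutadapt and DESeq2 (version printed as 3.5). The counter, its annotation and whether it used strand: not given in the sources used here. Depth was estimated from the step between low values, of which 67.8% to 76.1% per library came out whole within 0.02 of a read, too few for a count test.

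A mean value of 10 or more was required of a gene (16594; 2126 fell under the filter). Values were taken as log2(value + 1) and fitted on group alone with limma 3.58.1 under R 4.3.3 (trended eBayes, Benjamini-Hochberg adjustment over all tested genes, threshold 0.05). The scale understates the change of low genes. Lengths are those of the longest coding transcript (any transcript for genes without one) in GENCODE M21, a GRCm38 annotation, and the length trend was removed with a lowess curve per library (span 0.3, fitted on genes with a mean of at least 100). Ratios were compared with exact permutation tests. The members, gene lists, roles and settings were chosen with earlier results of these data known. All 35 members are named; given in full are those called, the 3 fibrinogen chains, Vwf, F2, Plg, Serpinc1, Kng1 and Kng2. Of the other pathway genes, at most 4 called in each direction are named, by smallest p. Markers of other cell types in a liver were fixed as lists. Limma called 4 of 5 erythroid markers higher, and 1 (Hbb-bt) with the length trend removed. Of 6 Kupffer cell markers it called 2 lower (Cd5l and Adgre1), while 2 others (Timd4 and Marco) lay higher without overlap, uncalled. Of 6 stellate cell markers 2 were called lower, and 2 had positive log2 fold changes. Of 5 cholangiocyte markers 1 was called higher, while 2 lay lower without overlap, uncalled. Limma called 0 of 5 lymphocyte markers (2 at an unadjusted p under 0.05, as were 6880 of the 16594 tested genes). Over all tested genes 12.8% were called higher and 14.2% lower. Of 7 hepatocyte markers, 2 were called lower (Apob and Hnf4a), and 0 with the length trend removed. In the same list 2 others (Ttr and Asgr1) lay higher without overlap, uncalled, and 4 of the 7 had positive log2 fold changes. Plots were made by matplotlib 3.10.9 (Python 3.11.15). A protein sequence table was not used here, and some listed genes are not reported here.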

Additional observations from a re-analysis of the deposited data

How the results depend on the processing

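The count of genes called lower was 5, and 5 to 7 under other pseudocounts, filters and normalizations, robust eBayes, sample weights and the replicate block. It was 2 without the eBayes trend, 0 with the transcript length trend removed, 0 with the replicate block and the length trend removed together, and 2 (Lman1 and Mcfd2) with the coding length trend removed, a setting added after seeing the data. It was 2 to 6 without single libraries. The count called higher was 1, and 0 without the eBayes trend, 2 with sample weights, 0 with the transcript length trend removed, 0 with the coding length trend removed, and 0 to 4 without single libraries. With the replicate block 1 gene was called higher and 5 lower. The labels state no pairing of libraries by number. Over all tested genes, r of the deviations was -0.098, 0.031 and 0.11 for libraries of the same number. For those of unlike number it was -0.14 to 0.098. These values cannot decide whether libraries were paired. The replicate block and length removal together called Klkb1 higher (0.90, limma adjusted p = 0.0341). The median stayed between -0.24 and 0.094 and changed sign. Over all genes 4479 were called, and 2500, 1841 and 2183 without vehicle replicates 1, 2 and 3, and 2724 with block and length removal. Coding length removal changed the split from 2125 higher and 2354 lower to 2328 and 1682, and rescaling without the 20 highest genes moved the median of all genes to -0.11.

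Of 666 values of a gene under an alternative, 593 kept direction and side of the threshold, 35 lost the call, 13 gained it and 25 changed direction. Vkorc1 was the called gene that changed direction, to -0.32 under both transcript length settings, though it gave 0.17 with coding length removal. Uncalled genes changed direction under quantile normalization (Fgg -0.026, Proz -0.0064, Vtn -0.16), rescaling (Serpina10 -0.036, Vtn -0.014), sample weights (F2 0.045, Hrg 0.089), transcript length removal with or without the block (Apoh -0.028, Vtn -0.068) and coding length removal (Fga 0.019, F2 0.072, F9 0.041, Plg 0.051, Hrg 0.094). Leaving out single libraries gave ranges of -0.43 to 0.14 for Hrg, -0.072 to 0.42 for F7, -0.0156 to 0.40 for F10, -0.0671 to 0.28 for Proz, -0.14 to 0.46 for F11, -0.21 to 0.33 for Vtn, -0.0305 to 0.17 for Serpina10. The cause of these changes was not tested. The limits are 3 libraries a group and the spread among R159 libraries; limits from depth were not tested.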

Other observations

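Some members share exons with other annotated genes, whose values were not compared by a test. Zbtb37, on the strand opposite Serpinc1, held 1264, 631 and 1142 in R159 replicates 1 to 3 against 398, 403 and 416 in vehicle. Gm16548, a non-coding gene opposite F5, was 429, 725 and 635 in R159 against 244, 273 and 195 in vehicle, the reverse of the order of F5 itself. Prkca, opposite Apoh, was 808, 509 and 506 in R159 against 977, 1088 and 1461 in vehicle. In none of these 3 did the groups overlap, where 22.5% of all tested genes lay higher and 23.6% lower without overlap. Slc22a3, opposite Plg, was 524, 887 and 997 in R159 against 725, 548 and 564 in vehicle, and its groups overlapped. Gm21974, a model on the same strand as Vkorc1, held at most 9.80 in any library. Whether counting used strand is not known here, and how far these genes share reads with the members was not tested.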
